A study of Mus musculus with 6 samples.

Results

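The genes described here are 4 receptor genes of the interleukin-6 (IL-6) cytokine family (Il6ra, Il6st, Osmr and Lifr), the transcription factor gene Stat3, and 5 feedback genes and regulators (Socs1, Socs2, Socs3, Cish and Bcl3). They were taken by name, and all 10 were found among the 54446 genes of the deposited count table and passed the low-count filter that kept 19176 genes. RNA was sequenced from intestine of wild-type mice at 96 h, with 3 libraries labelled NEC, for necrotizing enterocolitis, and 3 labelled control. NEC pups were gavaged with 40 µl of 33% Esbilac formula at 4 h intervals and, at 12 h intervals, were held in 99.9% N2 for 100 s and then at 4 °C for 10 min, while control pups fed from the dam and met neither stress. The sources used here give neither the segment of intestine nor the age of the pups, and nothing in them ties each library to its own animal. The p-values therefore measure only how these libraries vary, and whether that equals the variation between animals is not known.

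IL-6 family cytokines signal through receptors that share the chain gp130, the product of Il6st. IL-6 first binds IL-6R (Il6ra), oncostatin M engages OSMR, and leukaemia inhibitory factor engages LIFR. JAK kinases bound to these chains phosphorylate STAT3, which enters the nucleus and switches on, among other genes, Socs3, whose product blocks gp130 signalling. SOCS1 chiefly restrains interferon signalling, and SOCS2 and CIS (Cish) are induced by STAT5 downstream of growth hormone and related cytokines. BCL3 is an atypical IkB protein that joins NF-kB subunits in the nucleus. In the intestine, STAT3 in epithelial cells is known for its part in wound repair and antimicrobial defence.

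RefSeq start sites (GRCm38.p6, the assembly of mm10) were available for 9 of the 10 genes, and the 250 bases before them were searched on both strands for TTCNNNGAA, the STAT motif, and for the core of the interferon-stimulated response element, written as GAAA, any 2 bases and GAAA. The promoters of Socs1, Socs3 and Osmr are shown because Socs1 and Osmr stood apart between the groups in opposite directions, while Socs3, the classical STAT3 target, did not. Capitals mark motif matches, and each sequence runs 5′ to 3′ on the strand of the gene (Socs1 chr16:10785537-10785786, Socs3 chr11:117969367-117969616 and Osmr chr15:6874314-6874563, all minus strand).
Socs1: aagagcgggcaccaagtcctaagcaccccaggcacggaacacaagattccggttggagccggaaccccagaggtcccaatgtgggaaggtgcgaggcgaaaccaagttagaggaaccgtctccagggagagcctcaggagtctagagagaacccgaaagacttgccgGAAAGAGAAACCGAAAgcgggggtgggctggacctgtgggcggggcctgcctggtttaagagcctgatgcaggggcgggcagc
Socs3: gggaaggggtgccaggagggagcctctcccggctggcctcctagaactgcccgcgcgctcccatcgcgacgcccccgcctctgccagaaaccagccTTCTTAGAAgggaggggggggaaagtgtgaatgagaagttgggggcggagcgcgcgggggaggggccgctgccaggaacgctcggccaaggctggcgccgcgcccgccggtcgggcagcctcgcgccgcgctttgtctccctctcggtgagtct
Osmr: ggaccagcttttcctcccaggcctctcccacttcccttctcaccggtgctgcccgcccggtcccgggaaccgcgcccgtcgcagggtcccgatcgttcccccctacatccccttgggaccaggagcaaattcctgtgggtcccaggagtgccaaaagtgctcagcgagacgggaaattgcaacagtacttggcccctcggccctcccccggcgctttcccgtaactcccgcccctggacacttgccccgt
The Socs1 window held 2 overlapping matches to the interferon element, which 2.98% of 32841 promoter windows of this length held. The Socs3 window held 1 match to TTCNNNGAA, which 7.02% of the windows held. Each of these motifs matched in 1 of the 9 genes, and the Osmr window held neither. A search for an NF-kB motif, GGGA, any 4 bases and CC, matched 4 of the 9 genes and 17.6% of all windows, and its matches are not in capitals. By the gene coordinates given below, Socs3 and Osmr start at 117970047 and 6874969, so their windows lie inside these annotated genes. Each window precedes a RefSeq start, and that of Socs1 lies outside its annotated gene. A match describes letters and not a bound site.

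Total counts ran from 74912430 to 97445491 in the NEC libraries and from 69441184 to 106304239 in the control libraries. Expression is given as CPM, a gene's counts relative to its library's TMM-scaled total, and fold changes are NEC over control from edgeR. Counts of 4 to 40 fell on multiples of 4 1.93 times as often as on the neighbouring values, so 1 fragment may stand for several counts and low genes are less precise than their counts imply. Sample codes in the labels begin with AG181017 in 2 NEC and 2 control libraries and with AG181028 in NEC replicate 1 and control replicate 3. The intestinal epithelial markers were abundant, with summed levels of 11570 to 17603 CPM in NEC and 12498 to 15892 CPM in control libraries, and 0 of 9 were called by edgeR or DESeq2 (0 at an unadjusted p below 0.05). Alb, a hepatocyte gene, stood at 21.8 CPM in NEC replicate 1 and 25.9 CPM in control replicate 3, against 0.172 to 0.201 CPM in the other libraries. Xist was at 0.546 CPM or below in the NEC libraries and at 179, 344 and 1.17 CPM in control replicates 1 to 3. The Y-linked gene Ddx3y was at 25.6, 44.8 and 35.1 CPM in NEC replicates 1 to 3, against 19.8, 1.29 and 30.9 CPM in control replicates 1 to 3. Signal of both sex chromosomes was thus present in control replicate 1, Xist was high only in control libraries, and sex and group are partly confounded.

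None of the 10 genes passed the edgeR test at an adjusted p below 0.05, a threshold passed by 0.704% of all genes tested (0.261% higher and 0.443% lower in NEC). At an unadjusted p below 0.05 there were 3 of 10, with Osmr and Il6ra higher and Socs1 lower in NEC, against 15.6% of all genes (7.61% higher and 7.99% lower). The same 3 genes were those in which the NEC and control libraries did not overlap, which held for 22.4% of all genes (10.8% with NEC higher and 11.6% with NEC lower). DESeq2 called 1 of the 10, Osmr, and 5.86% of the genes it tested, and limma-voom called 0 of the 10 and 0.787% of its genes. The 10 genes had a median log2 fold change of 0.088, against 0.026 over all genes. Stat3, Socs2 and Socs3, the most abundant members, differed by less than the spread between replicates.

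**Figure D1:**
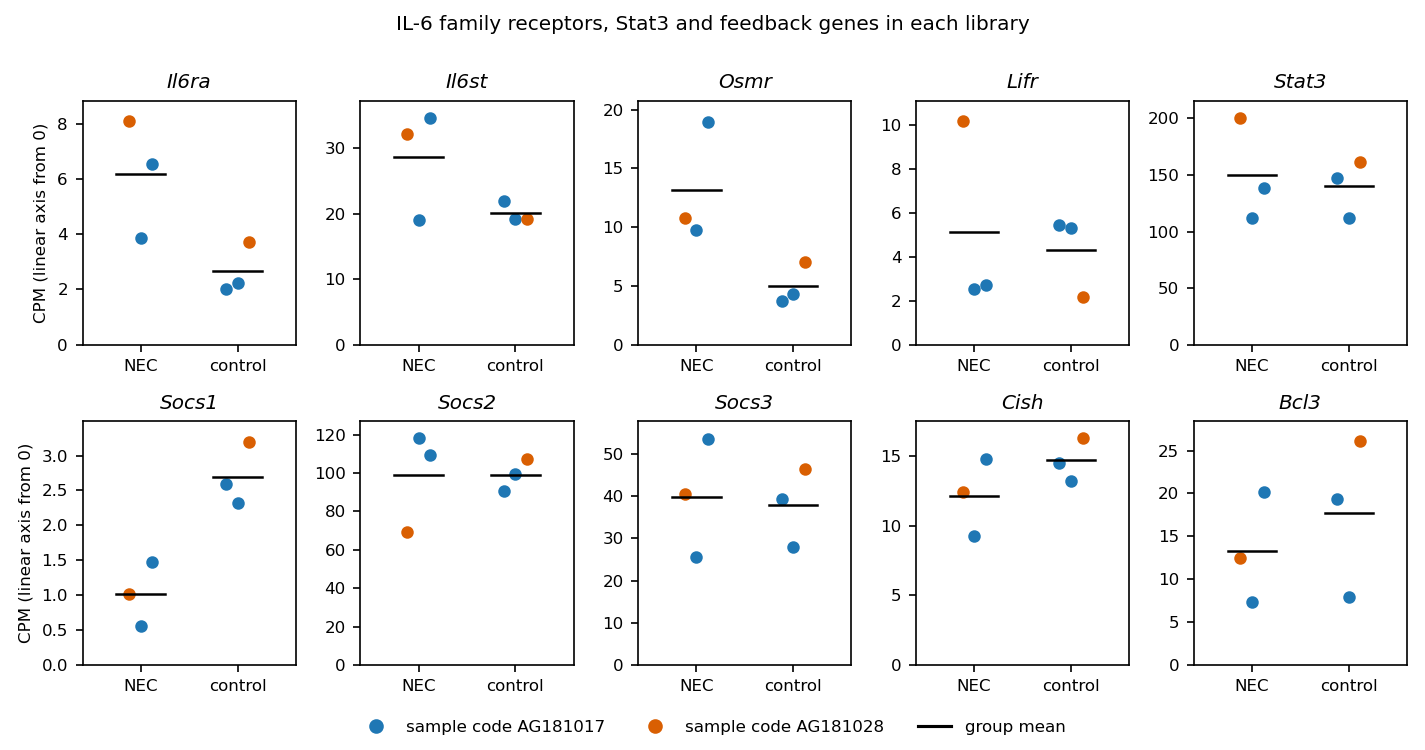
CPM of the 10 genes in each of the 3 NEC and 3 control libraries on linear axes from 0, with points coloured by the sample code in the labels and bars at group means. Osmr and Il6ra lay higher in every NEC library than in any control library and Socs1 lay lower, while the other 7 genes overlapped.

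Osmr, the oncostatin M receptor chain (ENSMUSG00000022146, chromosome 15, 6813577 to 6874969, minus strand), stood at 10.8, 9.75 and 19.0 CPM in NEC replicates 1 to 3, against 3.68, 4.30 and 7.06 CPM in control replicates 1 to 3. All NEC libraries were above all control libraries, and NEC replicate 3 was the highest. The log2 fold change of Osmr was 1.39 (SE 0.40, 95% interval 0.47 to 2.31), a 2.62-fold difference, with an edgeR adjusted p of 0.156 and a DESeq2 adjusted p of 0.0243. Fibroblasts are known for expressing Osmr. The summed fibroblast markers were at 476, 1944 and 589 CPM in NEC replicates 1 to 3, against 662, 945 and 665 CPM in control replicates 1 to 3. Of the 7 fibroblast markers edgeR and DESeq2 called 0 (1 at an unadjusted p below 0.05, higher in NEC, where 7.61% of all genes met that). On the log2 scale 6 were positive and 1 negative (median 0.37). The part of fibroblasts in the Osmr level was not tested. In bulk tissue, fewer or more cells of a type and less or more RNA per cell cannot be told apart.

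Il6ra, the ligand-binding IL-6 receptor chain (ENSMUSG00000027947, chromosome 3, 89864059 to 89913196, minus strand), stood at 8.09, 3.87 and 6.52 CPM in NEC replicates 1 to 3, against 2.003, 2.24 and 3.73 CPM in control replicates 1 to 3. The groups were separated by a narrow gap, between NEC replicate 2 and control replicate 3. The log2 fold change of Il6ra was 1.21 (SE 0.42, 95% interval 0.25 to 2.18), and the edgeR adjusted p was 0.228. Leukocytes and hepatocytes are known for expressing Il6ra. Neutrophil markers summed to 3.32 to 28.9 CPM in NEC and 1.40 to 2.88 CPM in control libraries, with 0 of 6 kept markers called by edgeR (3 at an unadjusted p below 0.05), 2 called by DESeq2 (S100a8 and S100a9, both higher) and Elane and Ly6g at 0 in all 6 libraries. Over all genes edgeR called 0.704%, DESeq2 called 5.86% of those it tested, and 15.6% had an unadjusted edgeR p below 0.05. Among 9 macrophage markers 8 were positive on the log2 scale (median 0.66), and DESeq2 called 3, of which Csf1r was lower in NEC. Their summed level was lower in NEC, at 221 to 318 CPM in NEC and 320 to 402 CPM in control libraries. Csf1r, the most abundant of them and the 1 with a negative value, averaged 130 ± 22.4 CPM in NEC and 278 ± 37.7 CPM in control (SD, n = 3 each, log2 fold change -1.10, edgeR adjusted p = 0.0919, DESeq2 adjusted p = 0.0162). EdgeR called 1 of the 9, Cd163, a scavenger receptor gene, higher in NEC (3.96 ± 1.73 CPM in NEC and 0.304 ± 0.094 CPM in control, SD, n = 3 each, log2 fold change 3.71, edgeR adjusted p = 0.0396). The Cd163 call ended without NEC replicate 2 (edgeR adjusted p = 0.0606), NEC replicate 3 (0.170), control replicate 1 (0.222), control replicate 2 (0.0787) or control replicate 3 (0.0960). Hepatocyte markers summed to 27.7, 0.858 and 0.891 CPM in NEC replicates 1 to 3, against 0.804, 0.776 and 33.4 CPM in control replicates 1 to 3. Of the 3 kept hepatocyte markers edgeR called 0. DESeq2 gave no adjusted p for Alb and Ahsg and did not call Apoh (DESeq2 adjusted p = 0.885). The part of these cells in the Il6ra level was not tested.

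Il6st, which encodes the shared chain gp130 (ENSMUSG00000021756, chromosome 13, 112464070 to 112510086, plus strand), stood at 32.1, 18.9 and 34.6 CPM in NEC replicates 1 to 3, against 21.9, 19.2 and 19.2 CPM in control replicates 1 to 3. The control libraries were tightly grouped, and NEC replicate 2 fell just under them. For Il6st the log2 fold change was 0.51 (SE 0.28, 95% interval -0.15 to 1.17, edgeR adjusted p = 0.442).

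Lifr, the leukaemia inhibitory factor receptor chain (ENSMUSG00000054263, chromosome 15, 7090614 to 7197489, plus strand), stood at 10.2, 2.55 and 2.73 CPM in NEC replicates 1 to 3, against 5.44, 5.32 and 2.19 CPM in control replicates 1 to 3. The highest and the lowest library of Lifr were the 2 with the code AG181028. NEC over control came to 0.26 on the log2 scale (SE 0.63, 95% interval -1.21 to 1.72, edgeR adjusted p = 0.900), and it turned to -0.036 with the sample code as a term and to -1.05 within the AG181017 libraries.

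Stat3 (ENSMUSG00000004040, chromosome 11, 100885098 to 100939540, minus strand) stood at 201, 112 and 138 CPM in NEC replicates 1 to 3, against 147, 112 and 161 CPM in control replicates 1 to 3. The groups overlapped throughout, and Stat3 differed by 0.10 on the log2 scale (SE 0.29, 95% interval -0.56 to 0.77, edgeR adjusted p = 0.913). The interval leaves room for a change of either sign, and the sign was negative within the AG181017 libraries (-0.072).

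Socs3, the inhibitor of gp130 signalling that STAT3 induces (ENSMUSG00000053113, chromosome 11, 117966079 to 117970047, minus strand), stood at 40.4, 25.7 and 53.6 CPM in NEC replicates 1 to 3, against 39.3, 28.0 and 46.5 CPM in control replicates 1 to 3. The control range lay inside the NEC range. Socs3 had a difference of 0.072 on the log2 scale (SE 0.33, 95% interval -0.69 to 0.84, edgeR adjusted p = 0.952).

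Socs1, the inhibitor of interferon receptor signalling (ENSMUSG00000038037, chromosome 16, 10782240 to 10785536, minus strand), stood at 1.02, 0.564 and 1.48 CPM in NEC replicates 1 to 3, against 2.59, 2.31 and 3.19 CPM in control replicates 1 to 3. All NEC libraries were below all control libraries, with 97, 50 and 103 counts in NEC and 190, 161 and 336 counts in control libraries. The log2 fold change of Socs1 was -1.40 (SE 0.46, 95% interval -2.48 to -0.33), 2.65-fold lower in NEC, and the edgeR adjusted p was 0.213. Its promoter holds the interferon element printed with it. T cell markers summed to 3.26 to 6.27 CPM in NEC and 3.12 to 5.37 CPM in control libraries, with 0 of 6 kept markers called, and their part in the Socs1 level was not tested.

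Socs2 and Cish, the feedback genes of STAT5, had values that overlapped between the groups. Socs2 (ENSMUSG00000020027, chromosome 10, 95385362 to 95417180, minus strand) stood at 69.1, 118 and 109 CPM in NEC replicates 1 to 3, against 90.5, 99.5 and 107 CPM in control replicates 1 to 3 (log2 fold change -0.0021, SE 0.26, 95% interval -0.60 to 0.60, edgeR adjusted p = 0.998). Its sign turned under 3 scalings and in DESeq2, with values of 0.079 or less. Cish (ENSMUSG00000032578, chromosome 9, 107296026 to 107302784, plus strand) stood at 12.4, 9.30 and 14.8 CPM in NEC replicates 1 to 3, against 14.6, 13.3 and 16.3 CPM in control replicates 1 to 3. NEC replicates 1 and 2 of Cish were below every control library, and the log2 fold change was -0.27 (SE 0.27, 95% interval -0.91 to 0.36, edgeR adjusted p = 0.695).

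Bcl3, the nuclear IkB gene (ENSMUSG00000053175, chromosome 7, 19808462 to 19822770, minus strand), stood at 12.4, 7.38 and 20.1 CPM in NEC replicates 1 to 3, against 19.3, 7.87 and 26.1 CPM in control replicates 1 to 3. Both groups spread widely, and replicate 2 was the lowest of each. For Bcl3 the log2 fold change was -0.42 (SE 0.51, 95% interval -1.60 to 0.77, edgeR adjusted p = 0.761).

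Antisense or overlapping genes touched 4 of the 10 genes. Genes on the opposite strand share 2.80% of the exon bases of Il6ra, 0.756% of Stat3 (with Stat5a), 6.51% of Bcl3, and 7.46% and 4.07% of Cish. The unnamed models among them had at most 10 counts in any library, and Stat5a had 7.04 to 12.1 CPM in NEC and 7.79 to 14.0 CPM in control libraries.

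Per kilobase of the principal transcript, the order of levels over the 6 libraries began with Socs2 and Stat3. Socs2 (mean 44.6 CPM per kb, range 31.1 to 53.3) and Stat3 (mean 32.1, range 24.7 to 44.4) overlapped. Socs3 followed (mean 15.2, range 10.1 to 21.0), below every Stat3 value, then Bcl3 (mean 8.40, range 3.99 to 14.1) and Cish (mean 4.72, range 3.26 to 5.74). Bcl3 overlapped both Socs3 and Cish. The receptors and Socs1 were lowest, with means of 2.80 CPM per kb for Il6st, 1.66 for Osmr, 1.32 for Il6ra, 0.639 for Socs1 and 0.490 for Lifr, and each of these 5 overlapped the next. In NEC the Osmr level per kb averaged 2.40 ± 0.92 and that of Il6st 3.29 ± 0.97, against 0.913 ± 0.33 and 2.31 ± 0.18 in control (SD, n = 3 each). With the summed length of all annotated exons in place of the principal transcript, the order began with Stat3, Socs3 and Socs2.

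**Figure D2:**
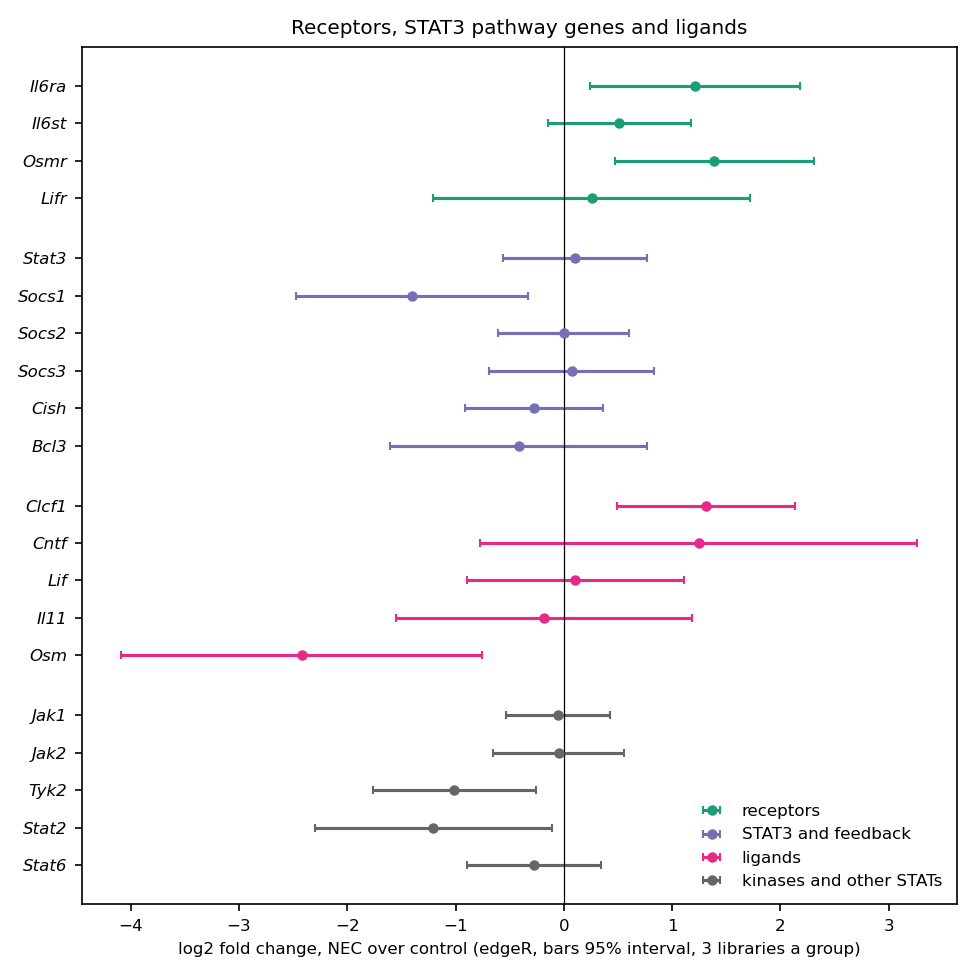
Log2 fold change of each gene, NEC over control, with 95% intervals from edgeR (3 libraries a group). Intervals of Osmr and Il6ra lie above 0 and that of Socs1 below 0, yet none of the genes plotted has an adjusted p below 0.05.

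The receptors pair with gp130, so ratios within a library were compared, which do not depend on library scaling. The log2 ratio of Osmr to Il6st was -1.58, -0.96 and -0.87 in NEC replicates 1 to 3, against -2.56, -2.15 and -1.44 in control replicates 1 to 3. NEC replicate 1 lay below control replicate 3, and the difference in means was 0.92 (two-sided exact permutation p = 0.2, adjusted p = 0.4 over the 4 ratios tested, where 0.1 is the smallest p that 3 against 3 allow). The log2 ratio of Il6ra to Il6st averaged -2.22 ± 0.21 in NEC and -2.96 ± 0.55 in control (SD, n = 3 each, difference 0.73, exact permutation p = 0.2). That of Lifr to Il6st averaged -2.73 ± 1.01 in NEC and -2.32 ± 0.69 in control (SD, n = 3 each, difference -0.41, exact permutation p = 0.7), and it was 0.052 without NEC replicate 3. That of Socs3 to Stat3 averaged -1.94 ± 0.50 in NEC and -1.90 ± 0.10 in control (SD, n = 3 each, difference -0.039, exact permutation p = 1). The control libraries held nearly the same ratio of Socs3 to Stat3, between -1.99 and -1.79, while the NEC libraries ran from -2.31 in replicate 1 to -1.37 in replicate 3.

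**Figure D3:**
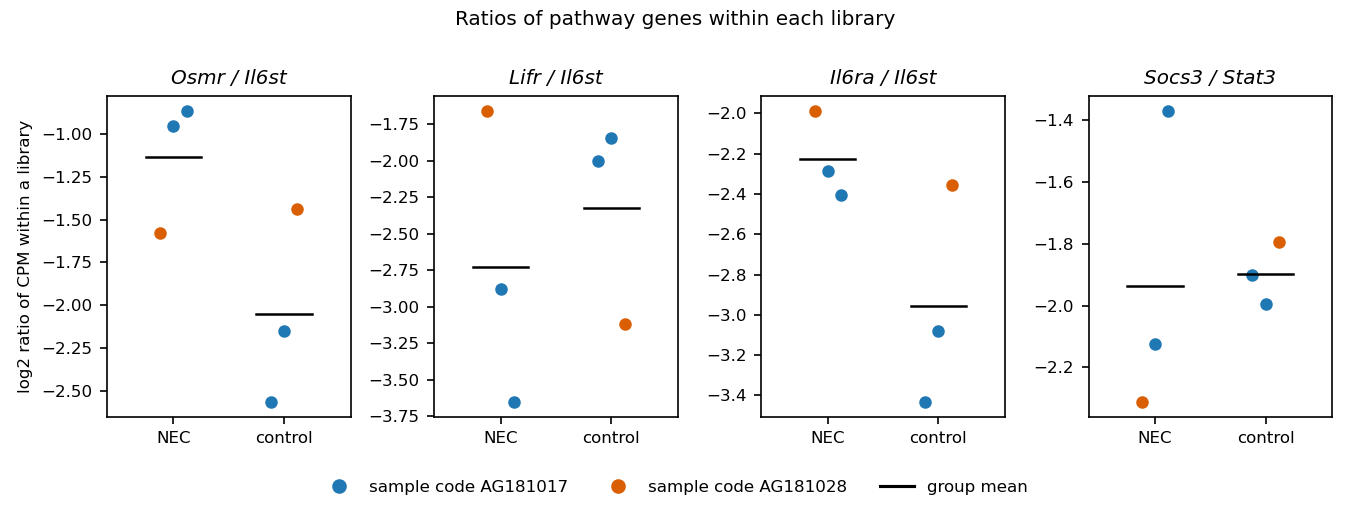
Log2 ratio of CPM of 2 genes within each library, for 3 NEC and 3 control libraries, with points coloured by sample code and bars at group means. The Osmr to Il6st and Il6ra to Il6st ratios averaged higher in NEC by 0.92 and 0.73, and each overlapped between the groups.

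Within the sample codes, Il6ra was higher in NEC by 1.24 on the log2 scale among the 4 AG181017 libraries and by 1.11 between the 2 AG181028 libraries. Osmr was higher by 1.77 in the first and by 0.61 in the second, and Socs1 had differences of -1.39 and -1.63. The groups did not overlap in Il6ra, Osmr and Socs1, so the sign within each code was fixed in advance. The AG181028 comparison is 1 library against 1 and has no replicate check. Of the 10 genes 4 differed in sign between the codes. Lifr was at -1.02 in AG181017 and 2.21 in AG181028, Socs2 at 0.26 and -0.64, Stat3 at -0.040 and 0.31, and Socs3 at 0.16 and -0.20.

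**Figure D4:**
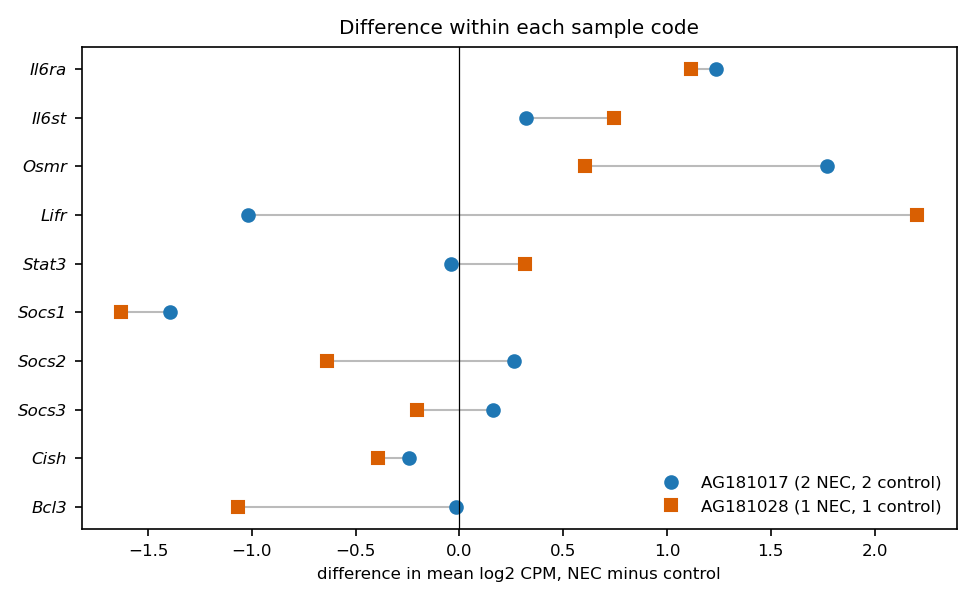
Difference in mean log2 CPM, NEC minus control, for each gene among the AG181017 libraries (2 NEC, 2 control) and between the AG181028 libraries (1 NEC, 1 control). Il6ra, Osmr and Socs1 keep their direction in both codes, which follows from groups that do not overlap. Lifr is at -1.02 in AG181017 and at 2.21 in AG181028.

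Among the ligands, Il6 was barely counted, and Clcf1 and Osm had the larger differences. Il6 had 5, 0 and 5 counts in NEC replicates 1 to 3 and 0 counts in all control libraries. A count of 0 allows up to 3 counts, or 0.0285 to 0.0431 CPM in these libraries, if each count is 1 independent fragment, and more where a fragment stands for several counts. Of 10 IL-6 family ligand and cofactor genes 8 were kept and edgeR called 0 (3 at an unadjusted p below 0.05, 1 by DESeq2), with a median log2 fold change of -0.039. Over all genes 15.6% had an unadjusted edgeR p below 0.05, and DESeq2 called 5.86% of those it tested. Clcf1, a ligand of the CNTF receptor, had 9.27, 5.86 and 11.1 CPM in NEC replicates 1 to 3, against 2.75, 4.14 and 3.64 CPM in control replicates 1 to 3 (log2 fold change 1.31, SE 0.35, edgeR adjusted p = 0.137). All NEC libraries of Clcf1 were above all control libraries.

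Osm, the ligand of OSMR, had 0.0419, 0.102 and 0.115 CPM in NEC replicates 1 to 3, against 0.559, 0.532 and 0.304 CPM in control replicates 1 to 3. Every NEC library of Osm was below every control library, opposite to Osmr, with 4, 9 and 8 counts in NEC (log2 fold change -2.42, SE 0.72, 95% interval -4.08 to -0.76, edgeR adjusted p = 0.170). Lif had 9.34 ± 2.49 CPM in NEC and 8.68 ± 4.25 CPM in control (SD, n = 3 each, log2 fold change 0.10), and Il11 had 0.317 ± 0.090 and 0.359 ± 0.096 CPM (log2 fold change -0.18). Cntf had a log2 fold change of 1.25 (edgeR adjusted p = 0.551), but 78.9% of its exon bases also belong to Zfp91, so the counts of these genes cannot be told apart.

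Of the 3 other IL-6 family receptor genes edgeR called 0 (0 at an unadjusted p below 0.05, 0 by DESeq2), with a median of -0.38. Il11ra1, the IL-11 receptor chain, had 34.8, 46.8 and 46.7 CPM in NEC replicates 1 to 3, against 57.6, 50.1 and 58.8 CPM in control replicates 1 to 3. All NEC libraries of Il11ra1 were lower, by a small margin (log2 fold change -0.38, SE 0.22, edgeR adjusted p = 0.471). Il27ra was near the limit of detection, at 0.115 CPM or less in NEC and 0.232 to 0.345 CPM in control libraries, and Cntfr had a log2 fold change of -0.18.

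None of the pathway's kinase genes was called. Jak1 averaged 119 ± 12.8 CPM in NEC and 124 ± 8.996 CPM in control (SD, n = 3 each, log2 fold change -0.057), and Jak2 75.3 ± 19.96 CPM in NEC and 77.8 ± 12.3 CPM in control (log2 fold change -0.047). Tyk2, which also serves interferon receptors, had 25.04, 18.4 and 13.1 CPM in NEC replicates 1 to 3, against 35.4, 29.2 and 49.3 CPM in control replicates 1 to 3 (log2 fold change -1.01, SE 0.32, edgeR adjusted p = 0.202). Its NEC libraries were all lower, and 8.07% of its exon bases overlap a gene on the opposite strand. Of the 13 kinase, phosphatase and inhibitor genes edgeR called 0 (1 at an unadjusted p below 0.05, 0 by DESeq2), with a median of 0.017, and log2 fold changes were 0.43 for Socs6, 0.97 for Pias3 and 0.38 for the phosphatase gene Ptpn11. The Pias3 value was 1.82 without control replicate 3. Shares over all genes were 15.6% at an unadjusted edgeR p below 0.05 and 5.86% by DESeq2.

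Of the 6 other STAT genes edgeR called 0 (2 at an unadjusted p below 0.05, 1 by DESeq2 and 1 by limma-voom), and the median log2 fold change was -0.39. Shares over all genes were 15.6% at an unadjusted edgeR p below 0.05, 5.86% by DESeq2 and 0.787% by limma-voom. Differences on the log2 scale were -1.20 for Stat2, -0.27 for Stat6 and -0.50 for Stat4.

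Known STAT3 target genes had mostly positive values. Of 26 kept targets 0 were called by edgeR and 4 by DESeq2, 19 had positive values and 7 negative, and the median log2 fold change was 0.47, against 0.026 over all genes. DESeq2 called 5.86% of all genes it tested and gave no adjusted p for the targets Lcn2 and Saa3. At an unadjusted p below 0.05 there were 7, all higher in NEC, where 7.61% of all genes met that in this direction. Timp1, an inhibitor of matrix proteases, had 4.51, 4.54 and 8.74 CPM in NEC replicates 1 to 3, against 1.01, 1.22 and 0.637 CPM in control replicates 1 to 3 (log2 fold change 2.63, SE 0.45, edgeR adjusted p = 0.0527). Cebpd, an acute phase transcription factor gene, had 33.4, 21.7 and 58.7 CPM in NEC replicates 1 to 3, against 5.55, 7.07 and 9.36 CPM in control replicates 1 to 3 (log2 fold change 2.37, SE 0.42, edgeR adjusted p = 0.0562). Both were higher in all NEC libraries and passed the DESeq2 test, with adjusted p-values of 1.53e-06 for Timp1 and 7.84e-06 for Cebpd. A gene on the opposite strand, Spidr, shares 15.0% of the exon bases of Cebpd.

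The acute phase and antimicrobial targets were uneven between NEC libraries. Lcn2, whose product withholds iron from bacteria, had 5.91, 5.45 and 68.4 CPM in NEC replicates 1 to 3, against 0.136, 0.230 and 0.751 CPM in control replicates 1 to 3. Saa3, a serum amyloid gene, had 2.86, 5.98 and 229 CPM in NEC replicates 1 to 3, against 0.409, 0.259 and 0.076 CPM in control replicates 1 to 3. In both genes NEC replicate 3 was far above the other NEC libraries, and the edgeR adjusted p-values were 0.0859 for Lcn2 and 0.106 for Saa3. Socs3 and Osmr were also at their highest in that library. Neutrophils are also known to make Lcn2, and their summed markers were at 3.32, 28.9 and 8.85 CPM in NEC replicates 1 to 3, against 1.40, 2.86 and 2.88 CPM in control replicates 1 to 3. The neutrophil marker S100a8 was at 1.42, 11.7 and 2.99 CPM in NEC replicates 1 to 3 and at 0, 0.244 and 0.181 CPM in control replicates 1 to 3, while Csf3r was highest in control replicate 3 and Camp in control replicate 2. The part of neutrophils in the Lcn2 level was not tested.

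**Figure D5:**
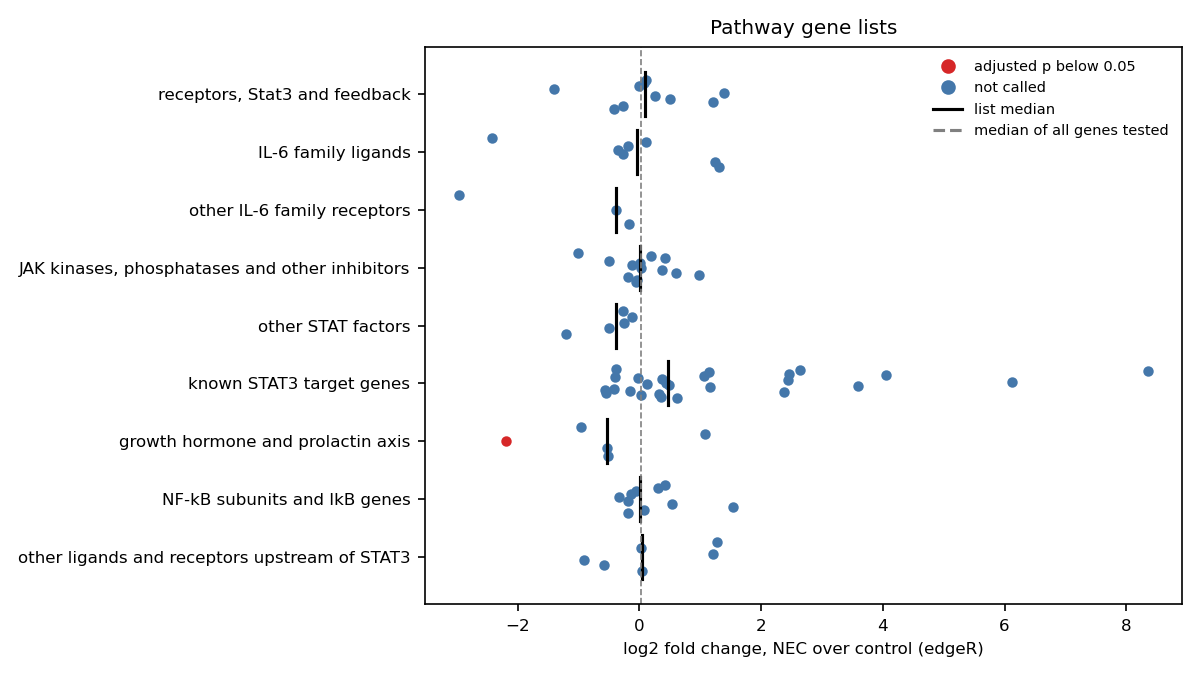
Log2 fold change, NEC over control, of kept genes among the 10 described here and in 8 lists of related genes (2 genes not shown), with black bars at the medians of all kept genes of a list and a dashed line at the median of all genes tested (0.026). Igfals is the 1 gene with an adjusted p below 0.05, and the STAT3 target list extends farthest to the right.

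Of 5 genes of the growth hormone and prolactin axis edgeR called 1, Igfals, lower in NEC, against 0.704% of all genes. The list held 3 genes at an unadjusted p below 0.05 (1 higher and 2 lower in NEC), against 15.6% of all genes. DESeq2 called 1, against 5.86% of the genes it tested. Negative values were found in 4 of the 5, and the median log2 fold change was -0.53. Igfals, a growth hormone target that encodes the acid-labile subunit carrying IGFs in blood, had 6.85, 8.15 and 6.18 CPM in NEC replicates 1 to 3, against 37.5, 23.1 and 36.1 CPM in control replicates 1 to 3. The groups of Igfals were far apart (log2 fold change -2.19, SE 0.29, edgeR adjusted p = 0.0378). The call ended when NEC replicate 1 (adjusted p = 0.0890), NEC replicate 2 (0.0520), NEC replicate 3 (0.170), control replicate 1 (0.206) or control replicate 3 (0.0795) was left out (edgeR). Prlr, the prolactin receptor gene, had 61.1 ± 4.76 CPM in NEC and 119 ± 37.0 CPM in control (SD, n = 3 each, log2 fold change -0.96, edgeR adjusted p = 0.148). The growth hormone receptor gene Ghr had a log2 fold change of -0.51, Igf1 one of -0.53, and Igfbp3 one of 1.08.

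Around Bcl3, edgeR called 0 of 10 NF-kB subunit and IkB genes (1 at an unadjusted p below 0.05, 1 by DESeq2), with a median of 0.0084. Shares over all genes were 15.6% at an unadjusted edgeR p below 0.05 and 5.86% by DESeq2. Nfkbia, the NF-kB-induced inhibitor gene, had 65.6, 59.6 and 199 CPM in NEC replicates 1 to 3, against 40.6, 35.1 and 35.6 CPM in control replicates 1 to 3. All NEC libraries of Nfkbia were higher, replicate 3 by far the most (log2 fold change 1.54, SE 0.47, edgeR adjusted p = 0.182). Differences were 0.54 on the log2 scale for Nfkbib, 0.42 for Relb and 0.30 for Rela.

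Of 11 other ligand and receptor genes upstream of STAT3, 6 were kept and edgeR called 0 (2 at an unadjusted p below 0.05, 1 by DESeq2), with a median of 0.038. Shares over all genes were 15.6% at an unadjusted edgeR p below 0.05 and 5.86% by DESeq2. Lepr, the leptin receptor gene, had 7.07, 11.2 and 7.60 CPM in NEC replicates 1 to 3, against 2.78, 2.77 and 5.18 CPM in control replicates 1 to 3 (log2 fold change 1.27, SE 0.38, edgeR adjusted p = 0.175). The NEC libraries of Lepr were all higher. Il20rb had a log2 fold change of 1.21, Il10rb of -0.90 and Il10ra of -0.59.

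The genes whose pattern over the 6 libraries was most like that of 3 members were found by Pearson's r of log2 CPM, among protein-coding genes with a mean of at least 5 CPM. For Stat3 they were Gaa (r = 0.998), Wbp11 (0.998), Vps18 (0.995), Itgb4 (0.995) and Zfp319 (0.994). For Socs3 they were Sidt2 (r = 0.992), Atp5d, Arhgap10, Tm4sf4 and Fastk (0.980). For Bcl3 they were Pds5a (r = 0.991), Gmppa, Zfp513, Trim40 and Gpt (0.985). With 6 libraries that share depth and scaling, and many genes to choose from, such values are a description. Among the members themselves Socs3 and Bcl3 had r = 0.905 and Il6ra and Osmr r = 0.895.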

How the data were processed

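RNA of mouse intestine from 3 NEC and 3 control samples was extracted with TRIzol and read on a NovaSeq in pairs, according to the protocols in the labels. The authors deposited whole-number gene counts, aligned to mm10 per the submitters' processing notes. Aligner, counter, annotation and strandedness: not given in the sources used here. Of 54446 gene identifiers 54409 matched a symbol in GENCODE M21, whose coordinates on mm10 are given.

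Genes kept by filterByExpr (minimum count 10) were scaled by TMM and tested with edgeR 4.0.16 (R 4.3.3), by the quasi-likelihood F test with robust=TRUE and Benjamini-Hochberg adjustment over all 19176 genes. All adjusted p-values are from this fit unless DESeq2 1.42.0 or limma 3.58.1 (voom) is named. Ratios used log2 CPM with a prior count of 2. The procedure was tested on simulated data. Members and lists were chosen with earlier results of these data known. Named genes are the 10 members, called genes, up to 4 genes with the smallest p in each related list, and the main ligands and kinases. In marker lists only called genes are named, besides Alb, Ahsg, Apoh, S100a8, S100a9, Csf1r, Csf3r, Camp, S100b, Cpa1, Cela2a, Amy2a5, Prss2, Cidec and markers at 0. These exceptions were chosen after their values were seen. Some items of these lists are not reported here.

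The main fit did not pair libraries by replicate number. The correlations of same-numbered libraries' deviations from their group means were -0.14, 0.27 and -0.0070. With so few libraries these values cannot decide whether the numbers pair samples. None of the 6 pairs of libraries within a group agreed within sampling noise.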

Additional observations from a re-analysis of the deposited data

Results flagged for a closer look

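Lifr and Socs2 differed in direction between the sample codes. Lifr had a log2 difference, NEC minus control, of -1.02 among the 4 AG181017 libraries, where both NEC libraries were below both control libraries, and of 2.21 between the 2 AG181028 libraries. The edgeR interaction of sample code and group gave Lifr an unadjusted p of 0.00202 and an adjusted p of 0.904, and 0 of 19176 genes passed it. Socs2 had a log2 difference of 0.26 among the AG181017 libraries and of -0.64 between the AG181028 libraries (edgeR interaction adjusted p = 1.0). Alb, at 21.8 CPM in NEC replicate 1 and 25.9 CPM in control replicate 3, also separated the codes, and its part in the Lifr levels was not tested.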

How the results depend on the processing

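The count of the 10 members called was 0 under each scaling, filter and edgeR setting tried, with limma-voom and with any 1 library left out (0 to 0), and it was 1 with DESeq2. The count with an unadjusted p below 0.05 ran from 2 to 4 with 1 library left out. Leaving out control replicates 1 and 2, the Xist-positive libraries, was an alternative chosen after seeing the data. It leaves control replicate 3 as the only control, so only its effect sizes are given. Over all genes 135 were called. That count was 247 with no low-count filter, 1296 with DESeq2, 54 with the replicate block, 243 with the sample code as a term and 25 within the AG181017 libraries. With 1 library left out it ran from 0 to 106, and leaving out control replicate 1 gave 0, NEC replicate 3 gave 3, control replicate 3 gave 25 and NEC replicate 1 gave 34.

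Osmr (1.04 to 1.71 with 1 library left out), Il6ra (0.96 to 1.53) and Socs1 (-1.77 to -1.13) kept their sign under every alternative. Their groups did not overlap, so leaving libraries out could hardly turn their signs. Signs turned for the following genes and ratios. With the sample code as a term Lifr was -0.036. Within the AG181017 libraries Lifr was -1.05, Stat3 -0.072, Socs2 0.24, Cntfr 0.14 and the log2 ratio of Socs3 to Stat3 0.20. With Y-linked expression as covariate Stat3 was -0.033, Socs3 -0.097, Lif -0.22 and Jak1 0.012. Without control replicates 1 and 2 Stat3 was -0.10, Socs3 -0.22, Stat4 0.22, Il10rb 0.32 (-0.90 as reported), Lif -0.46 and Jak1 0.031. Socs2 was 0.0023 with RLE, 0.016 with upper quartile and 0.079 with library-size scaling, and 0.0058 with DESeq2. With library-size scaling Jak1 was 0.00082 and Jak2 0.0017. With 1 library left out the ranges that crossed 0 were -0.71 to 0.60 for Lifr, -0.16 to 0.28 for Stat3, -0.17 to 0.20 for Socs2, -0.20 to 0.30 for Socs3, -0.46 to 0.28 for Cntfr, -0.42 to 0.037 for Il11, -0.22 to 0.49 for Lif, -0.14 to 0.012 for Jak1 and -0.28 to 0.098 for Jak2. The log2 ratio differences ran from 0.66 to 1.22 for Osmr to Il6st, -0.95 to 0.052 for Lifr to Il6st, 0.49 to 1.03 for Il6ra to Il6st and -0.32 to 0.15 for Socs3 to Stat3. The cause was not tested.

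The replicate block changed no call of the 10 members. With it the edgeR calls of Igfals (adjusted p = 0.0658), Cd163 (0.0840) and Cela1 (0.0569) ended, as they did within the AG181017 libraries (0.136, 0.0841 and 0.105). The Cd163 call also ended with Y-linked expression as covariate (0.0721) and by limma-voom (0.0653). Whether the numbers pair samples is not known. NEC replicate 1 correlated best with control replicate 3 (0.36), NEC replicate 2 with control replicate 2 (0.27) and NEC replicate 3 with control replicate 1 (0.025). With 3 libraries a group, p-values depend on single libraries, and members below 5 CPM (Socs1, and Il6ra, Osmr and Lifr in some libraries) rest on the fewest counts.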

Other observations

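Markers of other tissues gave these values. Cela1, a pancreatic elastase gene, averaged 3.83 ± 1.07 CPM in NEC and 31.9 ± 9.98 CPM in control (SD, n = 3 each, log2 fold change -3.06, edgeR adjusted p = 0.0297). It was the 1 of 3 kept acinar markers that edgeR called, against 0.704% of all genes, and all 3 had negative values (median log2 fold change -1.56). Of these, Cpa1 was at 0.218 CPM or less in every library. The other 3 of the 6 acinar markers failed the low-count filter. Among them Cela2a and Amy2a5 had counts only in NEC libraries, and Prss2 had at most 26 counts in NEC and 8 in control. Whether the Cela1 level comes from pancreatic tissue was not tested. The Cela1 call ended without NEC replicate 1 (edgeR adjusted p = 0.0773), NEC replicate 3 (0.163), control replicate 1 (0.162) or control replicate 3 (0.0581). By edgeR none of the kept B cell, smooth muscle, endothelial, hepatocyte, adipocyte or enteric neuron and glia markers was called, with median log2 fold changes of -0.52, 0.086, -0.35, -0.57, 0.56 and -0.058. At an unadjusted p below 0.05 there was 1, the glial gene S100b, which DESeq2 called (0.949 ± 0.818 CPM in NEC and 4.99 ± 2.11 CPM in control, SD, n = 3 each, log2 fold change -2.39, DESeq2 adjusted p = 0.00872, edgeR adjusted p = 0.182). With 1 library left out these medians ran from -1.05 to 1.18 for B cell, -0.36 to 0.36 for smooth muscle, -0.58 to 0.18 for endothelial, -3.69 to 5.30 for hepatocyte, 0.23 to 0.86 for adipocyte and -0.70 to 0.30 for neuron and glia markers, so all but the adipocyte median crossed 0. The adipocyte median is the value of 1 kept marker, since 3 of the 4 adipocyte markers failed the low-count filter. That marker, Cidec, was at 157 to 429 CPM, while the other 3 had at most 8 counts in any library. Whether Cidec reports on adipocytes here was not tested. The fibroblast median (0.37) ran from -0.64 to 0.79, the T cell median (-0.36) from -0.64 to 0.15 and the epithelial median (-0.16) from -0.26 to 0.033, while the macrophage (0.50 to 0.93) and neutrophil (1.49 to 4.98) medians kept their sign.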
